A study of Mus musculus with 6 samples.

Results

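The ubiquitin-conjugating (E2) genes were followed in platelet RNA from knock-in mice whose integrin β3 carries R734C and from wild-type mice. Every row of the expression tables whose gene symbol begins with Ube2 was taken, which gave 37 of 24346 symbols. A mean of at least 1 FPKM (fragments per kilobase of transcript, scaled for library size) over the 6 libraries was reached by 25 of the 37, and 24 of these are described singly. The groups were Homo, 3 libraries of knock-in platelets that carry R734C on both copies of β3, and WT, 3 libraries of wild-type platelets. Both were made from blood thrombocytes by the same protocol. Age, sex, strain and the number of animals per library are not given in the sources used here, so p-values measure the spread between these libraries, which may be technical.

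Ubiquitin is a small protein that is joined to other proteins in a relay. An E1 enzyme activates it, an E2 enzyme carries it on a catalytic cysteine, and an E3 ligase brings the loaded E2 to the substrate. The E2 largely decides whether a single ubiquitin, a chain that marks a protein for the proteasome or a signalling chain is built, and some E2 enzymes carry related modifiers such as SUMO, NEDD8 or ISG15 instead. Platelets have no nucleus and take their mRNA from the megakaryocyte. Reticulocytes, the young red cells, use the ubiquitin system heavily while they clear their proteins.

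The libraries held platelet RNA with a varying amount of red cell RNA. Of 14 platelet markers 13 had a mean of at least 1 FPKM, and their summed level was 50164 to 55633 FPKM in Homo and 54410 to 56655 FPKM in WT libraries. Cd3d and Cd3e (T cells), Ms4a1 (B cells) and Elane (neutrophils) were listed at 0 in all libraries, and 0 of 11 neutrophil markers reached a mean of 1 FPKM. Of 8 monocyte markers 1, Lyz2, passed that mean, with a summed level of 7205 to 9128 FPKM in Homo and 7035 to 8240 FPKM in WT. The T and NK cell markers summed to 5.06 to 8.83 FPKM in Homo and 2.67 to 4.42 FPKM in WT, and the B cell markers to 0.693 to 3.14 FPKM in Homo and 0.193 to 1.66 FPKM in WT. Of the 9 T and NK markers 5 were listed at 0 in all libraries. Only Nkg7 of these 9, and only Cd74 of the 6 B cell markers, reached a mean of 1 FPKM. Of 11 erythroid markers 8 reached it, and their sum ran from 24545 to 178198 FPKM in Homo and from 37399 to 92490 FPKM in WT libraries. Summed haemoglobin mRNA alone was 174631, 24284 and 31514 FPKM in Homo libraries 1, 2 and 3, against 90564, 46193 and 36766 FPKM in WT libraries 1, 2 and 3. Homo library 1 and WT library 1 were thus the richest of their groups. Depth, judged from the steps between low values, was 0.883 to 1.06 times that of WT library 1 in Homo and 1.02 to 1.06 times in the other WT libraries.

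The most abundant E2 mRNA in these libraries was Ube2l6, the E2 that carries the interferon-induced modifier ISG15. It measured 817 ± 925 FPKM in Homo and 663 ± 296 FPKM in WT (SD, n = 3 each), and made up 60.7%, 25.5% and 26.9% of the summed E2 level in Homo libraries 1 to 3, against 51.0%, 37.3% and 33.3% in WT libraries 1 to 3. Ube2v1, the catalytically inactive partner of the signalling-chain enzyme Ube2n, came next, with 226 ± 12.9 FPKM in Homo and 222 ± 30.2 FPKM in WT. Ube2r2, a partner of cullin ligases, had 144 ± 17.5 FPKM in Homo and 137 ± 12.9 FPKM in WT. In both genotypes the ranges of Ube2l6, Ube2v1 and Ube2r2 did not meet, so the first and second ranks hold within the spread. The level of Ube2l6 followed haemoglobin mRNA over the 6 libraries (Pearson correlation 0.99), and the part of red cell RNA in it was not tested. Ube2r2 overlapped Ube2o, the next gene by WT mean, in both genotypes, and Ube2b, the next by Homo mean, in Homo. Below came Ube2o, Ube2b, Ube2m and Ube2c, whose neighbours in the order overlapped in WT. Across the 25 genes the order was much alike in Homo and WT (Spearman correlation of the group means 0.97, over genes, which are not independent). All 37 summed to 3103, 1030 and 1128 FPKM in Homo libraries 1 to 3, against 1961, 1463 and 1328 FPKM in WT libraries 1 to 3. Total FPKM over all genes was higher in Homo (758381 to 856863) than in WT (641278 to 708432). As a share of the total, the 37 made up 0.362%, 0.136% and 0.145% in Homo, against 0.277%, 0.228% and 0.206% in WT. The Homo mean was thus above the WT mean for the sum (1753 against 1584 FPKM) but below it for the share (0.214% against 0.237%). Without Ube2l6 the sums were 1218, 768 and 824 FPKM in Homo and 961, 917 and 885 FPKM in WT.

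**Figure D1:**
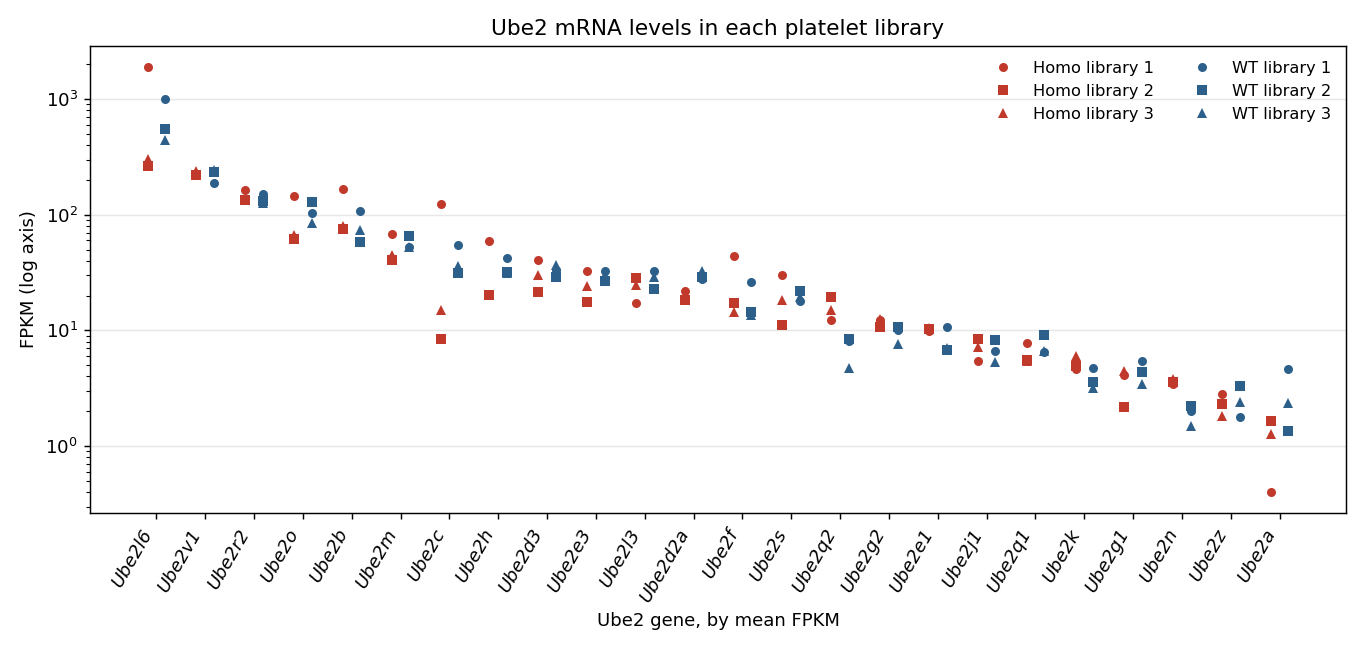
FPKM (log axis) of 24 of the 25 Ube2 genes with a mean of at least 1 FPKM, in order of mean level, with each Homo library (red) left of each WT library (blue) and library numbers by marker shape. Ube2l6 and Ube2c spread most widely within Homo, from 262 to 1885 and from 8.40 to 125 FPKM, while Ube2v1 stays between 188 and 245 FPKM in all 6 libraries.

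The 12 genes under 1 FPKM included 5 with some signal. The broad-range enzyme Ube2d1 was the nearest to that limit, with a mean of 0.808 FPKM set largely by 2.73 FPKM in WT library 2; Ube2a was the lowest above it, with a mean of 1.95 FPKM. Ube2j2, Ube2v2, Ube2w and Ube2e2 stayed under 0.9 FPKM in each library. Ube2t of the Fanconi DNA repair pathway, Ube2u, Ube2ql1, Ube2d2b, Ube2dnl1, Ube2dnl2 and Ube2cbp, whose product binds E2 enzymes, were the 7 listed at 0 in all 6 libraries. A listed 0 can be a failed estimate in such tables.

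Few E2 mRNAs differed between the genotypes. Ube2q2 was higher and Ube2d2a lower in Homo, and the other 23 of the 25 genes did not pass the test (limma on log2(FPKM + 1), Benjamini-Hochberg adjusted p under 0.05 over 4859 genes), with adjusted p-values of 0.106 to 0.931. That is 8.0% of the E2 genes, against 8.36% of all genes tested, so the family's share was close to the background (higher in Homo, 1 of 25 against 4.36%; lower, 1 of 25 against 3.99%). At an unadjusted p under 0.05 there were 4 of the 25, against 25.4% of all genes. The median log2 fold change was -0.13 for the 25 genes and -0.01 for all genes tested. Values did not overlap between Homo and WT for 4 of the 25 (16.0%; 30.7% of all genes). Ube2q2 and Ube2n were the 2 of these that were higher in Homo (14.9% of all genes), and Ube2d2a was among the 2 that were lower (15.8% of all genes). Among the 25, 8 share exon bases with another gene and 9 have near-identical stretches elsewhere, so their levels are less certain. The 8 are Ube2v1, Ube2c, Ube2d3, Ube2l3, Ube2d2a, Ube2s, Ube2g2 and Ube2e1. In bulk RNA of this kind fewer cells of a type and less RNA per cell cannot be told apart.

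**Figure D2:**
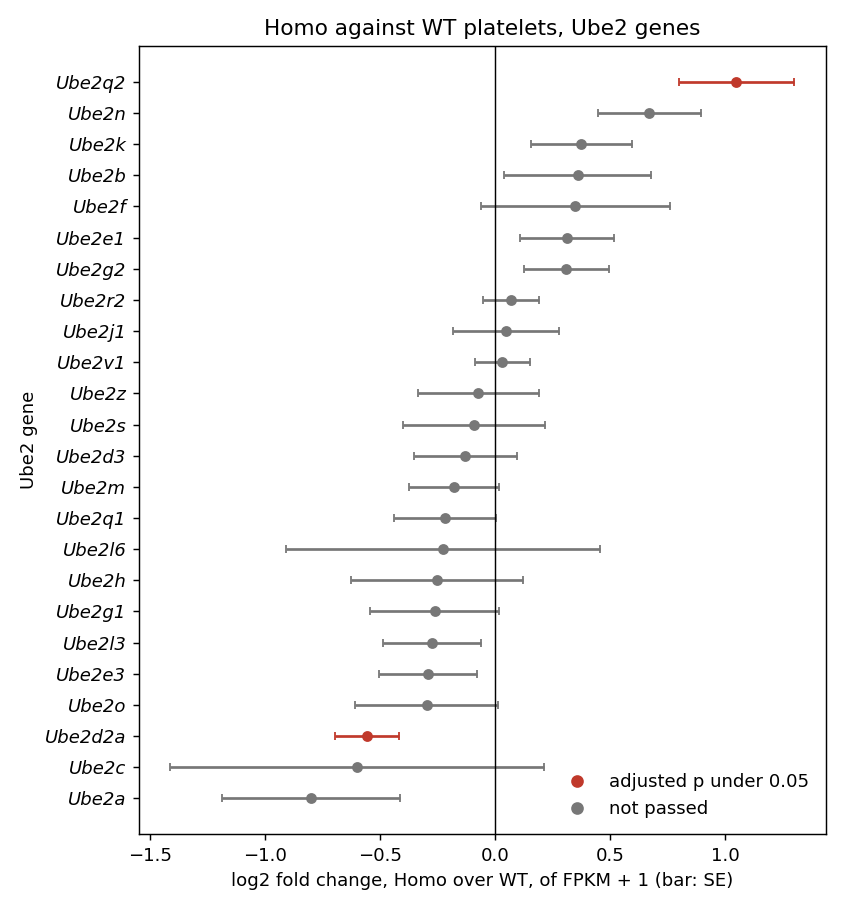
Log2 fold change of FPKM + 1, Homo over WT, of 24 of the 25 tested Ube2 genes, with bars of 1 SE from limma and red marking an adjusted p under 0.05. Ube2q2 at 1.05 and Ube2d2a at -0.56 are the red points, and the bars of Ube2l6 and Ube2c are the widest.

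Ube2q2 encodes a large E2 with a long amino-terminal extension. It measured 12.4, 19.3 and 14.9 FPKM in Homo libraries 1 to 3, against 8.05, 8.39 and 4.72 FPKM in WT libraries 1 to 3. Every Homo library lay above every WT library. On the log2 scale it rose by 1.05 (SE 0.25; adjusted p = 0.0394 in limma), or 2.07-fold, and Ube2q2 was the only one of the 25 whose group means of FPKM + 1 were at least 2-fold apart, the limit named in the series' design (3.11% of all genes). Without the added 1, the means of Ube2a (1.11 FPKM in Homo and 2.79 FPKM in WT) were more than 2-fold apart too. Ube2q1, a relative of Ube2q2, showed 7.82, 5.52 and 5.41 FPKM in Homo, against 6.47, 9.11 and 6.69 FPKM in WT. It missed the threshold (log2 fold change -0.22, limma adjusted p = 0.606). Ube2q2 (chr9:55148854-55207529 in GRCm38, plus strand) shares no exon with another gene, but 1 other annotated gene, Gm4895, holds a near-identical stretch.

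Ube2d2a belongs to the Ube2d enzymes, which work with many E3 ligases and place the first ubiquitin on a substrate. It measured 21.7, 18.2 and 19.6 FPKM in Homo libraries 1 to 3, against 27.7, 28.7 and 32.6 FPKM in WT libraries 1 to 3, with no overlap. On the log2 scale it fell by 0.56 (SE 0.14; adjusted p = 0.0465 in limma), or 1.47-fold. Its close relative Ube2d3 had 41.0, 21.6 and 29.9 FPKM in Homo and 33.4, 28.7 and 36.7 FPKM in WT, and the values overlapped (log2 fold change -0.13, limma adjusted p = 0.773). Exons of Ube2d2a (chr18:35771558-35809494, plus strand) overlap those of AC141471.2 on the same strand, and Gm9762 holds a near-identical stretch, so its level is less certain. Both calls were lost when any library other than Homo library 1 was left out. The limma adjusted p of Ube2q2 and of Ube2d2a were above 0.05 without WT library 1 (adjusted p = 0.0643 and 0.0656), WT library 2 (0.0820 and 0.129), WT library 3 (0.110 and 0.153), Homo library 2 (0.133 and 0.145) or Homo library 3 (0.127 and 0.137), and under it without Homo library 1 (0.0251 and 0.0389). Both calls were also lost with no filter on low values (0.127 and 0.0964) and with no variance trend (0.0795 and 0.0901).

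Other enzymes that place the first ubiquitin did not pass. Ube2e3, the most abundant of the Ube2e enzymes, measured 24.8 ± 7.41 FPKM in Homo and 29.8 ± 2.74 FPKM in WT, and Ube2e1 10.2 ± 0.302 FPKM in Homo and 8.17 ± 2.13 FPKM in WT (SD, n = 3 each). Ube2l3, which serves HECT and RBR ligases, had 17.2, 28.2 and 24.7 FPKM in Homo libraries 1 to 3, against 32.5, 22.9 and 29.2 FPKM in WT. Its lowest value was in Homo library 1, the library where Ube2l6 was highest.

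Among the builders of signalling chains, Ube2n was low and Ube2v1 abundant. Ube2n measured 3.42, 3.56 and 3.81 FPKM in Homo libraries 1 to 3, against 2.00, 2.22 and 1.51 FPKM in WT libraries 1 to 3. The groups did not overlap, but the difference of 0.67 on the log2 scale missed the threshold (SE 0.22; adjusted p = 0.106 in limma). Ube2v1 measured 218, 218 and 241 FPKM in Homo, against 188, 234 and 245 FPKM in WT (log2 fold change 0.03, limma adjusted p = 0.911). Stretches near-identical to Ube2n lie in 5 other annotated genes and to Ube2v1 in 6, and Ube2v1 shares exons with the read-through gene Gm20431 and with Gm11476 on the other strand. How the authors' counting shared such fragments is not given in the sources used here, so the gap between the levels of Ube2n and Ube2v1 is uncertain.

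Of the tested enzymes of degradation chains and of the endoplasmic reticulum, 0 of 5 passed in limma, where 8.36% of all genes did (0 of 5 also at an unadjusted p under 0.05, against 25.4% of all genes). Ube2r2 had 164, 134 and 133 FPKM in Homo libraries 1 to 3, against 151, 131 and 127 FPKM in WT. Ube2g2, which acts in protein disposal from the endoplasmic reticulum, had 11.9 ± 0.984 FPKM in Homo and 9.45 ± 1.64 FPKM in WT. The membrane-anchored Ube2j1 had 5.47, 8.44 and 7.16 FPKM in Homo, against 6.61, 8.35 and 5.37 FPKM in WT. Ube2k had 5.24 ± 0.734 FPKM in Homo and 3.83 ± 0.796 FPKM in WT, and Ube2g1 3.59 ± 1.24 FPKM in Homo and 4.42 ± 0.996 FPKM in WT (SD, n = 3 each). Log2 fold changes of the 5 lay between -0.26 and 0.37.

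Carriers of NEDD8 and FAT10 did not pass the test. Of the NEDD8 carriers, Ube2m had 51.2 ± 14.3 FPKM in Homo and 57.0 ± 7.63 FPKM in WT, and Ube2f 25.3 ± 16.5 FPKM in Homo and 18.2 ± 7.17 FPKM in WT. Ube2z, which takes ubiquitin or FAT10 from the E1 enzyme Uba6, had 2.31 ± 0.505 FPKM in Homo and 2.51 ± 0.767 FPKM in WT (SD, n = 3 each).

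Several E2 mRNAs varied between the Homo libraries in the same order as haemoglobin mRNA. Of the 25 genes 11 (44.0%) were highest in Homo library 1, the library richest in haemoglobin, against 15.4% of all genes tested. Ube2l6 measured 1885, 262 and 304 FPKM in Homo libraries 1 to 3, against 999.7, 546 and 442 FPKM in WT libraries 1 to 3, the same order over the 6 libraries as haemoglobin. Homo library 1 lay above and Homo libraries 2 and 3 below all WT libraries. The Homo mean of FPKM was above the WT mean while the difference on the log2 scale was -0.23 (SE 0.68; adjusted p = 0.878 in limma). Ube2h, an E2 that serves the Maea ligase in red cell maturation, measured 58.9, 20.3 and 20.3 FPKM in Homo, against 42.0, 32.1 and 31.4 FPKM in WT, with the same order. Ube2c, which starts chains for the anaphase-promoting complex in dividing cells, measured 125, 8.40 and 15.1 FPKM in Homo, against 54.5, 31.2 and 36.2 FPKM in WT. Ube2o, a quality-control enzyme that removes proteins from reticulocytes, measured 146, 61.9 and 66.3 FPKM in Homo, against 103, 129 and 84.3 FPKM in WT. Ube2c and Ube2o likewise had their highest value in Homo library 1 and their lowest in Homo library 2. Within WT they did not keep the order of haemoglobin, which fell from library 1 to 3. There Ube2c was lowest and Ube2o highest in library 2. Levels of these genes are less certain where reads can be shared: Ube2c overlaps exons of Tnnc2 on the other strand, which these libraries do not mark, and near-identical stretches of Ube2l6 and Ube2h lie in other genes.

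Over the 6 libraries, Pearson correlations of log2 values with summed haemoglobin were 0.99 for Ube2l6, 0.96 for Ube2h, 0.94 for Ube2c and 0.83 for Ube2o, with Spearman correlations of 1, 1, 0.94 and 0.94. The relation was not among the comparisons planned beforehand, and these genes were not named for it in advance. Exact permutation p-values, two-sided over 720 orders of the libraries, were 0.00139, 0.00139, 0.00556 and 0.0458 for Pearson and 0.00278, 0.00278, 0.0167 and 0.0167 for Spearman. Of the p-values, 0.00139 and 0.00278 are the smallest that 6 libraries can give, and after adjustment over 4859 genes none passed (smallest adjusted p = 0.114 for Pearson and 0.193 for Spearman; 348 genes at an unadjusted Pearson p under 0.05). Without the 2 libraries farthest from the median haemoglobin, Homo library 1 and WT library 1, the Pearson correlations over the other 4 libraries were 0.97, 0.87, 0.90 and 0.94. In these 4 libraries haemoglobin was higher in WT (46193 and 36766 FPKM) than in Homo (24284 and 31514 FPKM). A relation to haemoglobin and a difference between genotypes therefore cannot be told apart there. Over all 6 libraries, a correlation of at least 0.9 was found for 5 of the 25 E2 genes (20%), against 3.07% of all genes. The other 2 of the 5, Ube2r2 (0.92) and Ube2f (0.91), had correlations of -0.55 and -0.78 without Homo library 1 and WT library 1. Ube2b had 0.85 over all 6 libraries and -0.77 without those 2 libraries. Ube2e3, Ube2s, Ube2d3 and Ube2m had 0.78, 0.77, 0.76 and 0.73, and 0.84, 0.93, 0.63 and 0.98 without those 2 libraries. The Spearman correlation of Ube2e3 was 0.94, like that of Ube2c and Ube2o. Over the 25 genes the median Pearson correlation was 0.51, against -0.05 over all genes tested. Within a genotype the 3 libraries are too few for a correlation. Isg15, named after its values were seen, measured 73.4, 15.7 and 14.6 FPKM in Homo, against 35.7, 22.6 and 17.8 FPKM in WT (Pearson correlation 0.98), whereas the ISG15-activating E1 gene Uba7 measured 98.9, 110.3 and 111 FPKM in Homo, against 69.0, 84.6 and 95.6 FPKM in WT (Pearson correlation -0.46; adjusted p between genotypes 0.136 in limma). The part of red cell RNA in the levels of these genes was not tested.

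**Figure D3:**
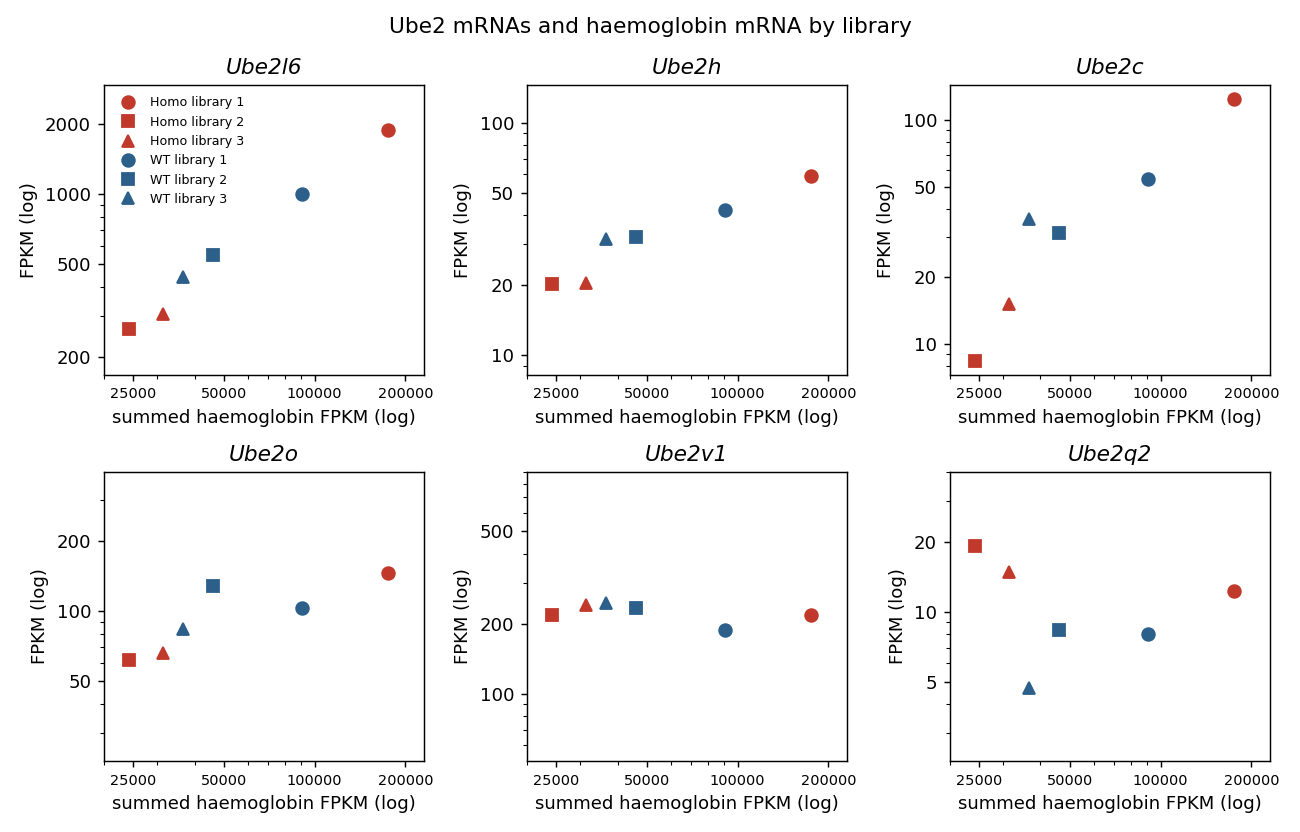
FPKM of 6 Ube2 genes against the summed FPKM of haemoglobin genes in each library (both axes log; red Homo, blue WT; marker shape gives the library number). Ube2l6 and Ube2h climb from Homo library 2, the lowest in haemoglobin at 24284 FPKM, to Homo library 1, the highest at 174631 FPKM, while Ube2v1 stays between 188 and 245 FPKM and Ube2q2 separates by genotype.

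The genotype values of these genes depended on single libraries. Without Homo library 1, Ube2c fell by 1.72, Ube2l6 by 1.14, Ube2h by 0.75 and Ube2o by 0.69 on the log2 scale in Homo (limma adjusted p = 0.00907, 0.0360, 0.0273 and 0.0376), so that 5 of the 25 E2 genes passed as lower, with Ube2d2a, and 1 as higher, while 293 of all 4859 genes passed as lower and 296 as higher. Haemoglobin in the libraries that remained was then 24284 and 31514 FPKM in Homo, below the 36766 to 90564 FPKM of WT. Without the richest library of each genotype, Ube2c, Ube2l6 and Ube2h fell by 1.49, 0.80 and 0.62 (adjusted p = 0.0129, 0.00712 and 0.0324), and Ube2o had -0.69 (adjusted p = 0.0562). Then 4 of the 25 E2 genes passed as lower, with 333 of all 4859 genes lower and 345 higher. Haemoglobin was again lower in the Homo libraries that remained, at 24284 and 31514 FPKM, against 46193 and 36766 FPKM in WT. In both of these fits genotype and red cell RNA cannot be told apart. Leaving out Homo library 2 moved the values the other way and gave no call, with log2 differences of 0.15 for Ube2c, 0.28 for Ube2l6, -0.0044 for Ube2h and -0.08 for Ube2o. Ube2l6 also turned without Homo library 3 (0.18) and without WT library 1 (0.11).

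The promoters of Ube2c, Ube2l6 and Ube2h, which varied together, are shown so that they can be set side by side. Each run comes from RefSeq (GRCm38.p6), is written 5′ to 3′ on the gene's strand, begins 250 bases before the gene's first RefSeq start and stops short of the first exon base that GENCODE M21 gives the gene. Ube2o is named only. Capitals mark a match, on either strand, to the CCAAT box (CCAAT). They also mark the cell cycle homology element (TTTGAA) and the CACCC box of red cell genes (CCACACCC). Sites for the red cell and platelet factors of the GATA family were searched as AGATAA, and also in the form whose opening base is thymine (TGATAA). The core of the interferon response element, GAAA before and after any 2 bases, was searched in the same way.
Ube2c (chr2:164769679-164769897, plus strand): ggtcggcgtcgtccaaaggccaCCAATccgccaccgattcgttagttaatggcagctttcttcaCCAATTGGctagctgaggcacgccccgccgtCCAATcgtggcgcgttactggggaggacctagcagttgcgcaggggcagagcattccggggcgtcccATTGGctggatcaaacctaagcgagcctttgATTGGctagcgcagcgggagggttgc
Ube2l6 (chr2:84798578-84798827, plus strand): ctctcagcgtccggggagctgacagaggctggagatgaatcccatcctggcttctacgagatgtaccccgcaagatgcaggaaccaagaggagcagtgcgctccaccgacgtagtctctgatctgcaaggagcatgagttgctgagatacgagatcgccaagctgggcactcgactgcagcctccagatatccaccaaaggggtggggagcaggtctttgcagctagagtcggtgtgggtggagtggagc
Ube2h (chr6:30304540-30304789, minus strand): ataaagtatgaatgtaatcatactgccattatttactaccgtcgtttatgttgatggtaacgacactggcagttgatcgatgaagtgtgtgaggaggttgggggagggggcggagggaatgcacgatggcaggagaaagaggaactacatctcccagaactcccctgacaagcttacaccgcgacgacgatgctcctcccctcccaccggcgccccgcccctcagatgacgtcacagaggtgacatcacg
The full window of Ube2c held 6 matches to the CCAAT box, of which an adjoining pair on opposite strands overlaps, and 1 to the cell cycle element, on the reverse strand, in the stretch that is not printed. Among 32851 promoter windows of the same length, 33.9% held a CCAAT box and 16.0% a cell cycle element. The windows printed for Ube2l6 and Ube2h held no match to any of the patterns, which occur in 2.98% (interferon core), 3.20% (CACCC box) and 16.6% (GATA site) of all windows. A second RefSeq start of Ube2h, not printed, has a window (chr6:30243804-30244053, minus strand) with 1 GATA site. GC content was 62.4% for Ube2c, 58.4% for Ube2l6 and 53.6% for Ube2h.

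The remaining enzymes of chromatin, DNA repair and cell division did not pass either. Ube2b, one of the pair of RAD6 enzymes, measured 165, 75.3 and 79.4 FPKM in Homo libraries 1 to 3, against 108, 58.6 and 73.8 FPKM in WT (log2 fold change 0.36, limma adjusted p = 0.547). Its twin Ube2a measured 0.405, 1.64 and 1.29 FPKM in Homo, against 4.64, 1.35 and 2.38 FPKM in WT (log2 fold change -0.80, limma adjusted p = 0.241). Ube2b was thus the main RAD6 mRNA in every library, and Ube2a was lowest in Homo library 1, where Ube2b was highest. Ube2s, which extends chains begun by Ube2c, had 30.3, 11.1 and 18.4 FPKM in Homo and 17.9, 22.1 and 19.6 FPKM in WT. Its exons overlap those of the ribosomal protein gene Rpl28 on the other strand, so its level is less certain.

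Balances between related or partner E2 mRNAs were compared in 8 pairs by the log2 ratio of FPKM + 1 in each library. Ube2q1 over Ube2q2 was -1.18 ± 0.53 in Homo and 0.09 ± 0.35 in WT. Ube2a over Ube2b was -5.63 ± 1.10 in Homo and -4.47 ± 0.20 in WT. Ube2n over Ube2v1 was -5.62 ± 0.03 in Homo and -6.26 ± 0.32 in WT. Ube2g1 over Ube2g2 was -1.52 ± 0.32 in Homo and -0.95 ± 0.18 in WT (SD, n = 3 each). In these 4 pairs the ratios did not overlap between the genotypes, with a two-sided exact permutation p of 0.1, the smallest that 3 against 3 libraries allow, and 0.2 after adjustment over the 8 pairs. The other 4 pairs overlapped, with exact p-values from 0.2 to 1. Of single genes 30.7% did not overlap, and the share over other gene pairs was not measured. Ube2q2 and Ube2n, each in 1 of the 4 separated pairs, also did not overlap singly. Ube2a lay between 0.405 and 4.64 FPKM, close to the 1 FPKM that was added. Without Homo library 1 the Homo minus WT difference of Ube2a over Ube2b was -0.53, against -1.16 with all libraries. With any library left out, that of Ube2q1 over Ube2q2 stayed between -1.56 and -1.04, of Ube2n over Ube2v1 between 0.46 and 0.78, and of Ube2g1 over Ube2g2 between -0.67 and -0.39. Ube2l3 over Ube2l6 ran from -0.70 to 1.06, its highest without Homo library 1.

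**Figure D4:**
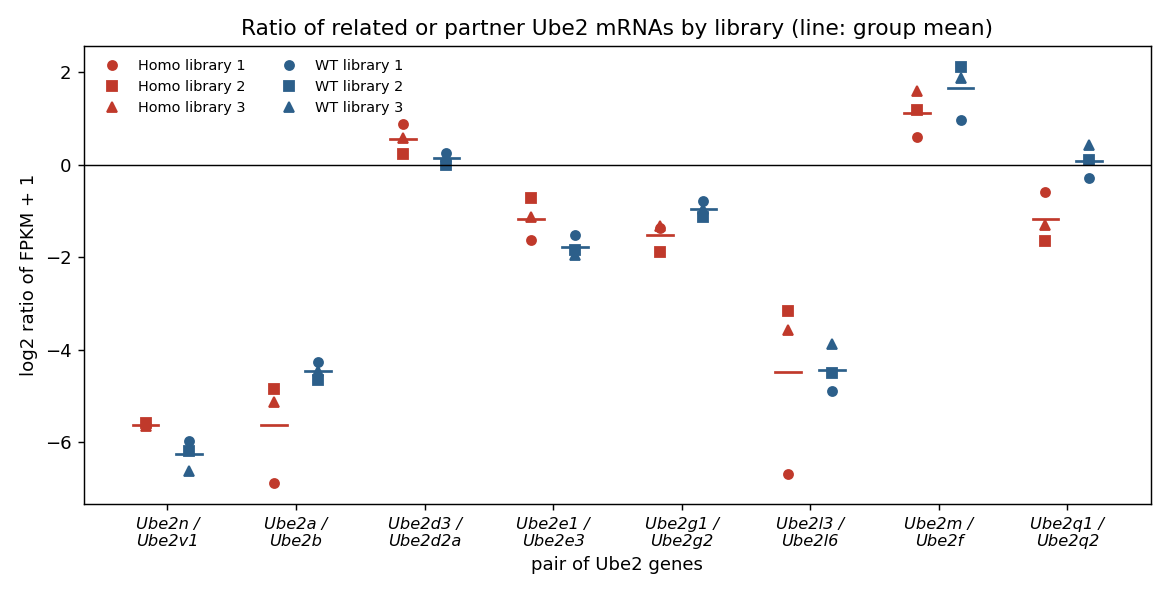
Log2 ratio of FPKM + 1 of 8 pairs of related or partner Ube2 genes in each library (red Homo left of blue WT; lines are group means). Ube2q1 over Ube2q2 averages -1.18 in Homo and 0.09 in WT, and Ube2l3 over Ube2l6 spreads most within Homo.

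The genes around the E2 enzymes showed a small number of changes. Of 98 tested genes in 6 lists, 4 were higher and 5 lower in Homo, 9.18% against the 8.36% of all genes, with a median log2 fold change of 0.03. Ubb, the main ubiquitin mRNA, had 4052, 2935 and 2799 FPKM in Homo and 3202, 3081 and 2969 FPKM in WT (log2 fold change 0.06, limma adjusted p = 0.832). Of the E1 enzymes 0 of 6 passed in limma (3 at an unadjusted p under 0.05), and of the 6 E2 genes with other symbols 0 passed (0 at an unadjusted p under 0.05), where 8.36% of all genes passed and 25.4% had an unadjusted p under 0.05. Of the E2 genes with other symbols Ufc1 was the most abundant, averaging 25.5 ± 5.47 FPKM in Homo and 25.3 ± 4.28 FPKM in WT.

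Of 41 E3 genes, 3 fell (3.99% of all genes did) and 0 rose (4.36% of all genes), a share of 7.32% called that is close to the 8.36% of all genes. Maea, of the ligase complex that works with Ube2h, had 32.5, 36.9 and 46.9 FPKM in Homo libraries 1 to 3, against 60.2, 54.6 and 62.4 FPKM in WT (log2 fold change -0.61, limma adjusted p = 0.0473). Anapc2, of the anaphase-promoting complex that works with Ube2c and Ube2s, had 6.20, 8.52 and 5.88 FPKM in Homo, against 11.0, 13.8 and 13.3 FPKM in WT (log2 fold change -0.81, limma adjusted p = 0.0426). Rnf19b, an RBR ligase, had 108, 87.4 and 102 FPKM in Homo, against 133, 172 and 144 FPKM in WT (log2 fold change -0.58, limma adjusted p = 0.0336). Birc2, a ligase of cell death signalling and the most abundant, averaged 211 ± 12.5 FPKM in Homo and 257 ± 67.0 FPKM in WT (SD, n = 3 each) and missed the threshold (-0.25 on the log2 scale; adjusted p = 0.397 in limma).

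Of 24 deubiquitinase genes 4.17% passed, against 8.36% of all genes. The 1 that fell was Cops6, a COP9 signalosome subunit of the machinery that removes NEDD8, with 8.38 ± 0.706 FPKM in Homo and 15.7 ± 3.32 FPKM in WT (log2 fold change -0.81, limma adjusted p = 0.0411). Otud6b, the most abundant, did not pass (0.56, limma adjusted p = 0.127). Of 17 SUMO, NEDD8, ISG15, UFM1 and autophagy modifier genes, 3 rose and 1 fell (4.36% and 3.99% of all genes). Nedd8 itself had 395, 473 and 447 FPKM in Homo libraries 1 to 3, against 333, 314 and 308 FPKM in WT (log2 fold change 0.46, limma adjusted p = 0.0263), while its carriers Ube2m and Ube2f did not pass. The autophagy modifiers Map1lc3b (0.63, limma adjusted p = 0.00898) and Gabarapl2 (0.55, limma adjusted p = 0.0236) rose, and the UFM1 protease gene Ufsp1 fell, with 43.2 ± 4.82 FPKM in Homo and 74.2 ± 7.82 FPKM in WT (-0.77, limma adjusted p = 0.0141; SD, n = 3 each). The 4 rises and 5 falls over the 6 lists became 4 and 3 without WT library 1, 1 and 0 without WT library 2, 2 and 1 without WT library 3, 8 and 5 without Homo library 1, 2 and 1 without Homo library 2, and 0 and 0 without Homo library 3. Of these 6 fits, Map1lc3b and Ufsp1 passed in 4, Gabarapl2, Nedd8 and Rnf19b in 2, Cops6 in 1, and Maea and Anapc2 in 0 (adjusted p up to 0.151 and 0.150 in limma).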

How the data were processed

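RNA of 6 mouse platelet libraries, 3 Homo and 3 WT, grouped and numbered by sample title, was extracted with TRIzol and a miRNeasy kit and converted with SMART-Seq HT and Nextera XT, per the labels' protocols; these kits do not mark strand. The authors deposited FPKM per gene symbol, 1 table a library, per the file headers. The submitters' processing notes name TopHat2 2.1.1, Bowtie2 2.2.8, SAMtools 0.1.18, Cuffdiff 2.2.1 and build mm10; settings and annotation are not given in the sources used here.

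No further scaling was applied. Genes with a mean of at least 1 FPKM (4859 of 12260 symbols above 0) were log-transformed as log2(FPKM + 1) and compared by genotype alone in limma 3.58.1 (R 4.3.3), with a variance trend and Benjamini-Hochberg adjustment, at 0.05; folds on this scale understate changes of low genes. The fit was tested on simulated data. Pairs and correlations used exact permutations in Python 3.11.15. Positions, exon overlaps and near-identical stretches (blastn 2.17.0, at least 95% over 200 bases) came from GENCODE M21. Depth is known only relative to a library. The E2 genes, the lists and the pairs were chosen with earlier results of these data known. The correlation with haemoglobin was not planned beforehand. Named beside the E2 genes were the most abundant gene of each list and its passing genes. Replicates shared no identical value. An E2 gene and a list gene are counted but not reported here. Alternatives covered pseudocount, filter, scaling, variance model, replicate block and left-out libraries.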

Additional observations from a re-analysis of the deposited data

How the results depend on the processing

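Ube2q2 kept its direction in every setting tried, and so did Ube2d2a (1.05 and -0.56 in the full set; 0.82 to 1.19 and -0.62 to -0.49 when each library was left out in turn). Leaving out each library gave 0 to 1 E2 genes higher and 0 to 5 lower in Homo, 0 to 296 genes higher and 0 to 293 lower over all genes, 0 to 8 higher and 0 to 5 lower in the 6 lists, and a median E2 log2 fold change of -0.28 to 0.05. Without Homo library 3 no gene passed in limma (1002 at an unadjusted p under 0.05). With no filter, 49 genes were higher and 58 lower, with 0 and 0 E2 genes (4 at an unadjusted p under 0.05) and 2 and 0 in the lists. Without the variance trend all these counts were 0 in limma (1197 genes and 3 E2 genes at an unadjusted p under 0.05). Sample weights gave 322 genes higher, and quantile normalization left 2 list genes lower. Without the richest haemoglobin library of each genotype, 345 genes were higher and 333 lower, with 4 E2 genes lower and 7 list genes higher.

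With replicate number as a block, 0 E2 genes were lower (Ube2d2a adjusted p = 0.0838), Ube2q2 passed, and 1 list gene was lower. Same-numbered libraries deviated together only weakly (correlations 0.16, 0.02 and 0.14 for numbers 1, 2 and 3), so the numbers were not taken to pair the samples; Homo library 2 correlated better with WT library 3 (0.07), and every other library best with its own number.

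Among genes that did not pass, signs turned for Ube2v1 (-0.0226 on scaling without erythroid and top symbols, -0.0012 on quantile normalization, -0.0623 without the haemoglobin-rich libraries), Ube2j1 (-0.0003 on the first scaling) and Ube2l3 (0.0284 without the haemoglobin-rich libraries). With single libraries left out, the ranges that crossed 0 were -1.14 to 0.28 for Ube2l6, -0.0854 to 0.10 for Ube2v1, -0.23 to 0.0855 for Ube2z, -0.0892 to 0.19 for Ube2j1, -0.0037 to 0.59 for Ube2b, -0.13 to 0.65 for Ube2f, -0.0295 to 0.14 for Ube2r2, -1.72 to 0.15 for Ube2c, -0.35 to 0.0932 for Ube2d3 and -0.44 to 0.25 for Ube2s. The cause was not tested. FPKM tables give no counts, so the precision of low levels such as those of Ube2n and Ube2a is unknown.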
